A study of Mus musculus with 5 samples.

Results

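The genes described here are the ligand TGF-beta 1, its receptors, and the SMAD proteins and SMAD corepressors through which it signals. They are Tgfb1, Tgfbr1, Tgfbr2, Tgfbr3, Smad2, Smad3, Smad4, Smad7, Ski and Skil, and all 10 were found by symbol among the 11352 genes of the deposited RNA-seq table. They were taken by symbol, not by a measured value, though the list was chosen with earlier results of these data known. RNA came from mouse HSPCs (haematopoietic stem and progenitor cells), which had been sorted for KIT and SCA1 and against lineage markers and CD135. There were 3 libraries from Cux1-low;NrasG12D mice, in which the homeodomain factor Cux1 was knocked down and an oncogenic Nras allele was present. These were set against 2 libraries from Cux1-low mice, which carried the Cux1 knockdown alone. All mice had been given pI:C, a synthetic double-stranded RNA, and doxycycline for 4 weeks, so the Cux1 knockdown and both treatments are shared by the groups. The age of the mice, the promoter or Cre that drives each allele, and whether each library came from its own animal are not given in the sources used here, so the p-values reflect only how these libraries varied, which may be technical in part. The comparison asks what the Nras allele adds when Cux1 is already low.

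TGF-beta 1 is secreted in a latent form and, once released, is bound by the type II receptor TGFBR2, which then recruits and phosphorylates the type I receptor TGFBR1. TGFBR1 phosphorylates SMAD2 and SMAD3, which join SMAD4, enter the nucleus and change transcription, while SMAD7 blocks the receptor and SKI and SKIL repress SMAD-bound genes. In the bone marrow this pathway is known as a brake on the division of haematopoietic stem cells.

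The promoters of 3 genes are shown first. Of the genes whose promoter windows were read, Tgfbr2 and Smad3 were lower and Tgfb1 higher in every Cux1-low;NrasG12D library than in any Cux1-low library. Tgfbr3, Smad2, Smad4 and Skil were lower in the same way, and the groups were separate for 53.5% of all genes. Each line runs 5′ to 3′ from 250 bases before to 50 bases after the RefSeq transcription start (GRCm38.p6). Promoter windows were read for 5 of the 10 genes (Tgfb1, Tgfbr1, Tgfbr2, Smad3 and Ski). No RefSeq promoter was found for Tgfbr3 and Skil, and the windows of Smad2, Smad4 and Smad7 were not read. Tgfbr2 lies at chr9:116175314-116175613 (minus strand), Smad3 at chr9:63757945-63758244 (minus strand) and Tgfb1 at chr7:25686752-25687051 (plus strand). Capitals mark matches, on either strand, to the GC box GGGCGG, the CCAAT box CCAAT, the SMAD box CAGAC, the ETS core CCGGAAG or the AP-1 site TGANTCA.
Tgfbr2: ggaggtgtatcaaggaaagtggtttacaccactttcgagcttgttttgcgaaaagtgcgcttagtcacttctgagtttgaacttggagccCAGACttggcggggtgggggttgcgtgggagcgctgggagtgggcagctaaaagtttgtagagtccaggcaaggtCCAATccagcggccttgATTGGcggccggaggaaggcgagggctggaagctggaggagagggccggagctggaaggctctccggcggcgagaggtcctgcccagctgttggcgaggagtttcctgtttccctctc
Smad3: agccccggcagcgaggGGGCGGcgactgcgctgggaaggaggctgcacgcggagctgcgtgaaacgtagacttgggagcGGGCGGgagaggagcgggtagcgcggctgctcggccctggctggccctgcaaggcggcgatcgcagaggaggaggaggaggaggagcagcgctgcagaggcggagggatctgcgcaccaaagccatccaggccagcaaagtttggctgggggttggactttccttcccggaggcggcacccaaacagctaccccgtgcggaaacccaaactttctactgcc
Tgfb1: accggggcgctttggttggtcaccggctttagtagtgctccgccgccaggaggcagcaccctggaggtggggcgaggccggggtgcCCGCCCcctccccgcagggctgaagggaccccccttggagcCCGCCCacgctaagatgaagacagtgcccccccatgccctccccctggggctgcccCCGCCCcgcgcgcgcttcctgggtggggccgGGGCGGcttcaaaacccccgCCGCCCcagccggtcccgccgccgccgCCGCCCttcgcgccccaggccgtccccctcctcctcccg
The Tgfbr2 window held 2 CCAAT boxes, in opposite orientations, 1 SMAD box and no GC box. The Smad3 window held 2 GC boxes and the Tgfb1 window 6, and neither held a CCAAT or SMAD box. No ETS core or AP-1 match as spelled here was in any of the 3. The capitals overlap at no place between different motifs. Of all 32817 RefSeq promoter windows of the same length, 37.4% held a CCAAT box, 49.6% a SMAD box, 35.6% a GC box, 8.86% the ETS core and 7.81% the AP-1 letters. A match is a run of letters, not a site shown to be bound.

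The libraries held 16489711 to 20262498 reads over the listed genes, as read from the smallest step in each deposited column, and the lowest value of any of the 10 genes (Skil in NrasG12D library 1) rested on 151 reads. Values are normalized CPM, the authors' read counts scaled to a library size adjusted for composition. NrasG12D library 3 stood apart from libraries 1 and 2: on the first principal component of all genes (73.8% of the variance) it lay at -4.16, against 29.1 and 38.0 for libraries 1 and 2, and -32.8 and -30.1 for the Cux1-low libraries. Results are therefore given with and without it. Library 3 was singled out from these same values and, of the NrasG12D libraries, lay nearest to the Cux1-low ones. Leaving it out thus favours larger differences, and p-values without it are descriptive only. The sort could be checked in part: Kit was at 477, 569 and 816 normalized CPM in the NrasG12D libraries and 1359 and 1373 in the Cux1-low libraries. Ly6a, which encodes SCA1, was at 24.2, 14.2 and 37.7 against 44.7 and 48.7. The T cell genes Cd3e, Cd3g, Cd4 and Cd8a and the neutrophil gene Ly6g were not listed.

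Of the 10 genes, 9 had lower means in the NrasG12D libraries and only Tgfb1 had a higher one, where 50.3% of all listed genes had a negative log2 fold change. The shift was greatest for the receptors Tgfbr2 and Tgfbr3 and for Smad3. With all 5 libraries, 0 of the 10 genes passed an adjusted p of 0.05 (limma on log2(normalized CPM + 1), Benjamini-Hochberg over 11352 genes), where 1.13% of all genes passed, 0.255% higher and 0.872% lower. At an unadjusted p under 0.05, 3 of the 10 were lower (Tgfbr2, Tgfbr3 and Smad3), where 31.4% of all genes reached that p in either direction and 16.5% did so as lower. In the authors' deposited table the same 3 genes had adjusted p-values below 0.05, all lower, where 16.1% of all genes did so in either direction, 6.97% as higher and 9.14% as lower. Without NrasG12D library 3, Tgfbr1, Tgfbr2, Tgfbr3, Smad3 and Smad4 passed, all lower, where 37.4% of all genes passed, 18% as higher and 19.4% as lower. With the replicate number as a block, these and Skil passed as lower, 6 of the 10, where 36.7% of all genes passed, 16.7% as higher and 20% as lower. The median log2 fold change of the 10 genes was -0.38, beside -0.00 for all genes, whose quartiles were -0.30 and 0.24.

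**Figure D1:**
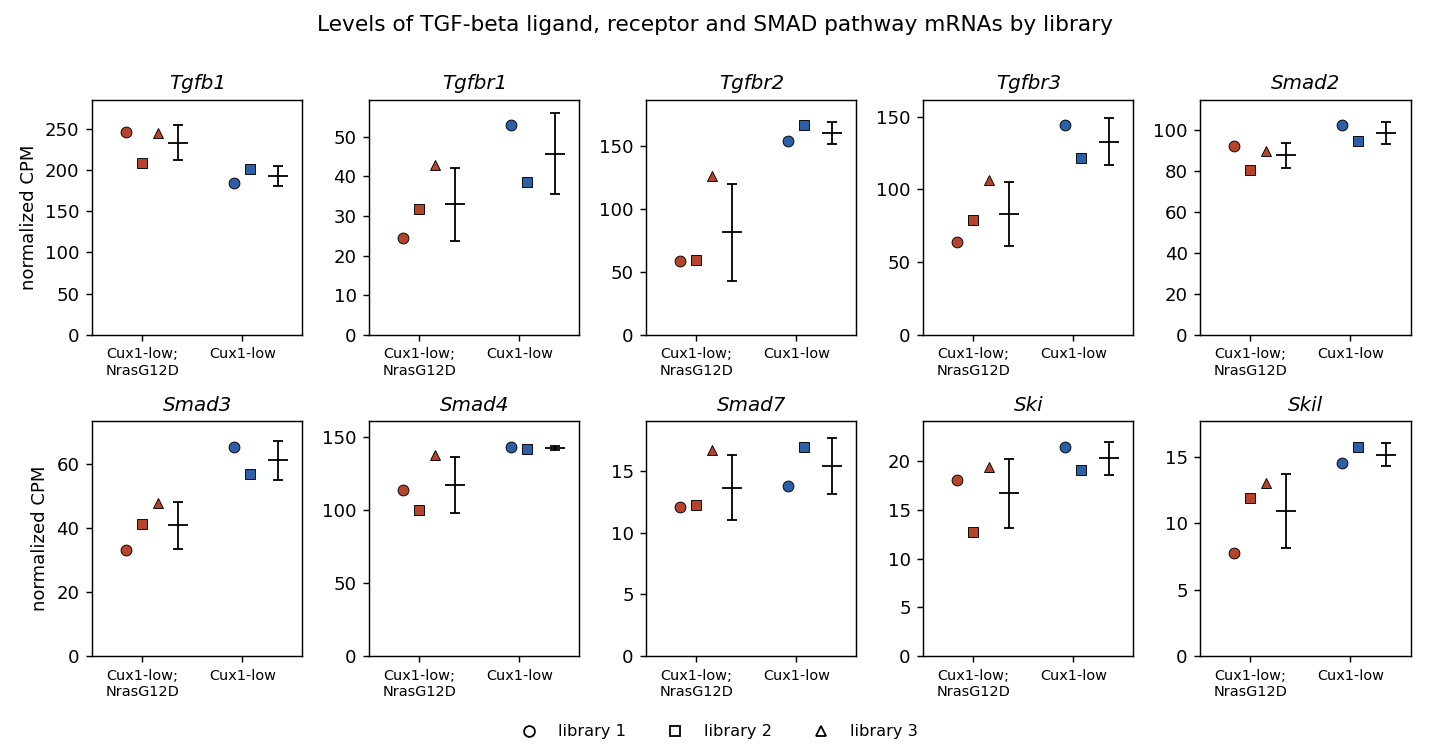
Normalized CPM (y axis, from 0) of each of the 10 genes in the 3 Cux1-low;NrasG12D libraries (red) and the 2 Cux1-low libraries (blue). Symbols give the library number and the black bars the mean ± SD of each group. Tgfbr2, Tgfbr3, Smad2, Smad3, Smad4 and Skil are lower in every NrasG12D library than in either Cux1-low library, and Tgfb1 is higher.

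Tgfb1, the ligand (ENSMUSG00000002603.15, chromosome 7, 25687002 to 25705077, plus strand, GENCODE M21 on mm10), was at 246, 209 and 245 normalized CPM in NrasG12D libraries 1, 2 and 3 and at 185 and 201 in the Cux1-low libraries. All 3 NrasG12D values lay above both Cux1-low values, with library 2 close to the higher of these. The means were 233 ± 21.1 (SD, n = 3) in the NrasG12D libraries and 193 ± 12 (SD, n = 2) in the Cux1-low libraries. The log2 fold change was 0.27 (SE 0.12, 95% interval -0.01 to 0.54, limma adjusted p = 0.165), so a rise was not detectable. Library 3, at 245, was as high as library 1, unlike its place for most of the other genes. Without it the log2 fold change was 0.23 (limma adjusted p = 0.144). Per kilobase of exon, Tgfb1 was also the most abundant of the 10 genes in the NrasG12D libraries, at 46.3 ± 4.19 normalized CPM per kb (SD, n = 3).

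Tgfbr2, the ligand-binding type II receptor (chromosome 9, 116084293 to 116175360, minus strand), showed the widest separation. Its values were 58.5, 59.5 and 126 normalized CPM in NrasG12D libraries 1, 2 and 3, against 154 and 166 in the Cux1-low libraries. Libraries 1 and 2 were at 36.5% and 37.2% of the Cux1-low mean and agreed closely with one another, while library 3 was at 78.5% of it. The log2 fold change was -1.06 (SE 0.32, 95% interval -1.83 to -0.30, limma adjusted p = 0.0931). Without library 3, a choice made on these same values, it was -1.42 (SE 0.10, limma adjusted p = 0.000929). In the authors' deposited table its log2 fold change was -0.98 with an adjusted p of 0.0328.

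Tgfbr3, betaglycan (chromosome 5, 107106570 to 107289629, minus strand), is a co-receptor that binds TGF-beta and presents it to TGFBR2. It was at 63.6, 79.0 and 107 normalized CPM in the NrasG12D libraries, against 144 and 122 in the Cux1-low libraries. The groups did not overlap, and library 3 again lay nearest to the Cux1-low level, at 80.3% of its mean. The log2 fold change was -0.70 (SE 0.21, 95% interval -1.20 to -0.19, limma adjusted p = 0.0952), and -0.89 without library 3 (SE 0.14, limma adjusted p = 0.00549). The authors' deposited table gave a log2 fold change of -0.68 and an adjusted p of 0.0305.

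Tgfbr1, the type I receptor kinase (chromosome 4, 47353222 to 47414931, plus strand), varied within both groups. It was at 24.5, 31.8 and 42.8 normalized CPM in the NrasG12D libraries and at 52.9 and 38.6 in the Cux1-low libraries, so library 3 lay above the lower Cux1-low value and the groups overlapped. The log2 fold change of -0.48 (SE 0.25, 95% interval -1.07 to 0.12) did not pass (limma adjusted p = 0.232). Without library 3 it was -0.68 (SE 0.20, limma adjusted p = 0.0357). The ratio of Tgfbr1 to Tgfbr2, in which library scaling cancels, was 0.418, 0.534 and 0.340 in the NrasG12D libraries and 0.344 and 0.232 in the Cux1-low libraries. The mean log2 ratio was 0.58 higher in the NrasG12D libraries (exact two-sided permutation test over libraries, p = 0.3, and 0.6 adjusted over 4 ratios), in a design where the smallest p is 0.1.

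**Figure D2:**
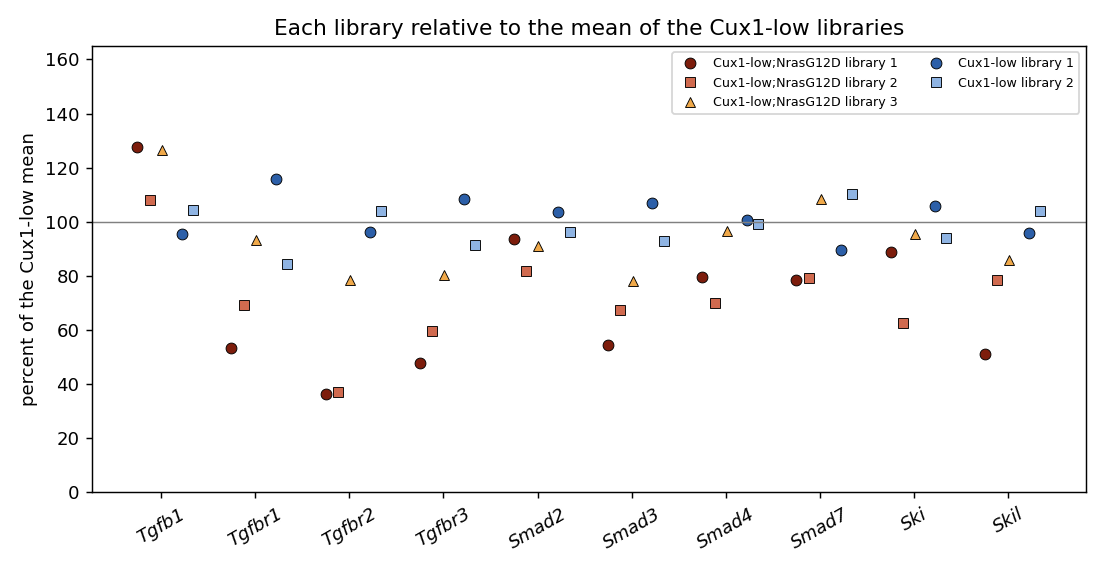
Each library's value as a percent of the mean of the 2 Cux1-low libraries (y axis, from 0; grey line at 100), for the 10 genes along the x axis. NrasG12D libraries 1 and 2 are at 36.5% and 37.2% for Tgfbr2, whereas library 3 (triangles) is at 78.5% there and at 96.7% for Smad4.

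Smad3 and Smad2 encode the receptor-activated SMADs, of which SMAD3 binds DNA directly. Smad3 (chromosome 9, 63646767 to 63757994, minus strand) was at 33.2, 41.3 and 47.9 normalized CPM in the NrasG12D libraries, against 65.4 and 56.9 in the Cux1-low libraries. The 2 groups were separate, with library 3 at 78.3% of the Cux1-low mean. Its log2 fold change was -0.58 (SE 0.18, 95% interval -1.0 to -0.17, limma adjusted p = 0.0922), and -0.70 without library 3 (SE 0.15, limma adjusted p = 0.0126). The authors' deposited table gave -0.58 with an adjusted p of 0.0331. Smad2 (chromosome 18, 76241580 to 76310963, plus strand) was at 92.4, 80.7 and 90.0 normalized CPM in the NrasG12D libraries and at 102 and 94.9 in the Cux1-low libraries. The groups were separate but by less than 3 normalized CPM, and the log2 fold change was -0.17 (SE 0.11, 95% interval -0.44 to 0.10, limma adjusted p = 0.330). The ratio of Smad3 to Smad2 was 0.360, 0.512 and 0.532 in the NrasG12D libraries and 0.639 and 0.599 in the Cux1-low libraries. Every NrasG12D ratio was below both Cux1-low ratios, and the mean log2 ratio differed by -0.42 (exact two-sided permutation test, p = 0.2, and 0.6 adjusted over the 4 ratios).

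Smad4, the common partner of the activated SMADs (chromosome 18, 73639009 to 73703780, minus strand), was at 114, 99.9 and 138 normalized CPM in the NrasG12D libraries and at 144 and 142 in the Cux1-low libraries. NrasG12D library 3 was within 4 normalized CPM of the lower Cux1-low value, and libraries 1 and 2 stood further below. The log2 fold change was -0.29 (SE 0.15, 95% interval -0.65 to 0.06, limma adjusted p = 0.216), and -0.42 without library 3 (SE 0.10, limma adjusted p = 0.0215).

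The inhibitors of the pathway were expressed at lower levels, and none passed in either comparison. Smad7, the inhibitory SMAD that SMAD signalling itself induces (chromosome 18, 75367529 to 75395935, plus strand), was at 12.1, 12.2 and 16.7 normalized CPM in the NrasG12D libraries and at 13.8 and 17.0 in the Cux1-low libraries. The groups overlapped, and the log2 fold change was -0.17 (SE 0.21, 95% interval -0.66 to 0.32, limma adjusted p = 0.593), a sign that turned under quantile normalization (0.03). Ski, a SMAD corepressor (chromosome 4, 155154075 to 155222592, minus strand), was at 18.1, 12.7 and 19.4 normalized CPM in the NrasG12D libraries against 21.5 and 19.1 in the Cux1-low libraries. These overlapped too (log2 fold change -0.28, SE 0.21, limma adjusted p = 0.377). Skil, which encodes the related corepressor SnoN and is also SMAD-induced (chromosome 3, 31095058 to 31122577, plus strand), was at 7.74, 11.9 and 13.1 normalized CPM in the NrasG12D libraries against 14.6 and 15.8 in the Cux1-low libraries. All 3 NrasG12D values were below both Cux1-low values, yet the log2 fold change of -0.47 (SE 0.24, 95% interval -1.04 to 0.10) did not pass (limma adjusted p = 0.221), nor did it without library 3 (limma adjusted p = 0.0706). The ratio of Skil to Ski was 0.429, 0.937 and 0.674 in the NrasG12D libraries and 0.677 and 0.826 in the Cux1-low libraries, and that of Smad7 to Smad4 was 0.106, 0.122 and 0.121 against 0.0958 and 0.120. Neither ratio separated the groups (exact two-sided permutation tests, p = 0.7 and p = 0.5, and 0.7 and 0.667 adjusted).

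**Figure D3:**
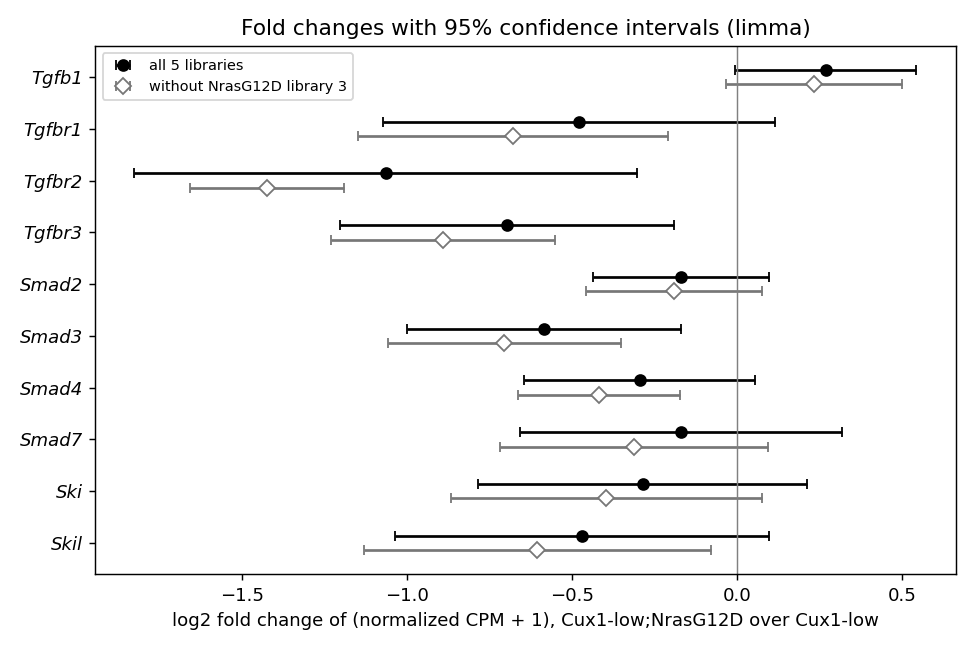
Log2 fold change of (normalized CPM + 1), Cux1-low;NrasG12D over Cux1-low (x axis), with 95% confidence intervals from limma, for the 10 genes. Filled circles use all 5 libraries and open diamonds leave out NrasG12D library 3, where the Tgfbr2 estimate moves to -1.42 with an SE of 0.10. With all 5 libraries the unadjusted intervals of Tgfbr2, Tgfbr3 and Smad3 lie below 0, and 0 of the 10 genes pass after adjustment.

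Across the 10 genes, the groups did not overlap for 7 (6 lower and Tgfb1 higher), where 53.5% of all genes were separate, 27% as lower and 26.5% as higher. NrasG12D library 3 lay closer to the Cux1-low mean than libraries 1 and 2 did for 8 of the 10 genes, the exceptions being Tgfb1 and Smad2, and the same held for 57.8% of all genes. Per kilobase of exon, the order of the levels in the NrasG12D libraries was Tgfb1 (46.3), Smad4 (31.6 ± 5.21), Tgfbr3 (12.7 ± 3.33), Smad2 (9.99 ± 0.704), Tgfbr2 (9.92 ± 4.70), Smad3 (7.36 ± 1.32), Tgfbr1 (5.05 ± 1.41), Smad7 (3.02 ± 0.585), Ski (3.01 ± 0.633) and Skil (1.13 ± 0.289 normalized CPM per kb, SD, n = 3). Ranges of 1 SD overlapped for the neighbours Tgfbr3 and Smad2, Smad2 and Tgfbr2, Tgfbr2 and Smad3, Smad3 and Tgfbr1, and Smad7 and Ski. The range of Smad3 lay below those of both Smad2 and Tgfbr3. Genes were not compared within each library, so an overlap of these ranges does not test the order. In the Cux1-low libraries Smad4 (38.5 ± 0.376) and Tgfb1 (38.3 ± 2.38 normalized CPM per kb, SD, n = 2) were level, followed by Tgfbr3 (20.3 ± 2.44) and Tgfbr2 (19.6 ± 1.06). Lengths are those of all annotated exons, and the isoforms in these cells were not measured.

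Genes with patterns like those of the 3 most variable of the 10 were sought over the 5 libraries by the root mean square difference of centred log2 values, among 9158 genes with a mean of at least 10 normalized CPM. Nearest to Tgfbr2 were Peg13 (difference 0.03), Ccdc8 (0.07) and Plcg1 (0.07), which encodes a phospholipase C. Peg13, an imprinted non-coding RNA, was at 42.8, 43.8 and 96.6 normalized CPM in the NrasG12D libraries and at 117 and 125 in the Cux1-low libraries, the same stepwise order as Tgfbr2. Nearest to Tgfbr3 were Avl9, Klhl24 and Capn5 (0.04 to 0.05), and nearest to Tgfbr1 were Ctnnd1, which encodes p120-catenin, Luzp1 and Mga (0.03 to 0.06). Within a looser difference of 0.2 there were 123 genes for Tgfbr2, 474 for Tgfbr3 and 448 for Tgfbr1, of the 9158. Likeness at that looser limit was thus not particular to the genes named.

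The other genes of the pathway were read from 7 lists, which hold 112 measured genes besides the 10. Of these, 0 rose and 2 fell (1.79%, beside 1.13% of all genes), and without NrasG12D library 3, 8 rose and 25 fell (29.5%, beside 37.4%). Among ligands and latency proteins (11 measured of 33), Fstl1, a follistatin-related secreted glycoprotein that binds TGF-beta family ligands, fell and 10 did not pass. Fstl1 was at 8.36, 6.22 and 11.3 normalized CPM in the NrasG12D libraries against 27.9 and 28.6 in the Cux1-low libraries (log2 fold change -1.64, SE 0.24, limma adjusted p = 0.0430). Itgav, an integrin subunit that helps to release latent TGF-beta, was at 14, 11.6 and 19.3 against 29.2 and 22.3 normalized CPM (limma adjusted p = 0.0984). Neither Tgfb2 nor Tgfb3 was listed. Of the 25 measured genes that TGF-beta induces in many cell types, Klf10 fell and 24 did not pass (median log2 fold change -0.08). Klf10, a zinc finger factor first described as a TGF-beta-inducible early gene, was at 99.2, 110 and 119 normalized CPM in the NrasG12D libraries against 229 and 190 in the Cux1-low libraries (log2 fold change -0.93, SE 0.13, limma adjusted p = 0.0411). All 3 NrasG12D libraries were alike here, library 3 included. Tgfbi, a secreted TGF-beta-induced protein gene, was at 21.5, 16.2 and 20.4 against 37.9 and 37.9 normalized CPM and did not pass (limma adjusted p = 0.0508). Of the 25, 10 had a positive sign, and without library 3, 3 rose and 8 fell, where 18% of all genes rose and 19.4% fell. Id3, an inhibitor of DNA-binding factors that was chosen after its values were seen, was at 10.4, 18.4 and 6.01 normalized CPM in the NrasG12D libraries against 2.35 and 3.08 in the Cux1-low libraries. Its NrasG12D values all lay above the Cux1-low ones (log2 fold change 1.65, SE 0.41, limma adjusted p = 0.0765). Ccn2, often used as a readout of the pathway, was not listed. The calls of Fstl1 and Klf10 were lost when any 1 library other than NrasG12D library 3 was left out.

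Other receptors and SMADs had negative signs without passing. All 7 measured of 17 other receptors and co-receptors were negative (median -0.48), where 50.3% of all genes were, and 0 passed. Without library 3, 4 of the 7 fell, where 19.4% of all genes did. The activin receptor gene Acvr2a was at 5.33, 4.96 and 10.2 normalized CPM in the NrasG12D libraries against 13.8 and 10.7 in the Cux1-low libraries, and the BMP receptor gene Bmpr2 at 3.90, 4.28 and 7.17 against 9.95 and 7.32. All 3 other SMADs measured were negative as well (median -0.62, 0 passed), and 2 fell without library 3, in the same fit. Smad1, which transmits BMP signals, was at 68.7, 59.5 and 103 normalized CPM against 114 and 117, and the inhibitory SMAD gene Smad6 at 4.46, 3.82 and 6.14 against 11.3 and 8.86 (limma adjusted p = 0.121 and 0.0790). Regulators of SMADs and receptors (27 measured, median -0.04), nuclear SMAD partners (22, median -0.01) and SMAD-independent signalling genes (17, median -0.02) had medians near that of all genes, with 0 passing. Among them, the ubiquitin ligase gene Smurf1 was at 15.3, 13.6 and 25.9 normalized CPM in the NrasG12D libraries against 34.0 and 35.6 in the Cux1-low libraries, and the deubiquitinase gene Usp11 at 91.9, 102 and 112 against 133 and 139. The corepressor gene Tgif1 was at 50.4, 42.6 and 51.0 against 70.3 and 65.8, and E2f4, a partner of SMAD3 in repressing MYC, at 364, 425 and 272 against 226 and 249. Rhoa was at 283, 272 and 283 normalized CPM against 220 and 228, and its effector kinase gene Rock2 at 82.7, 98.3 and 101 against 132 and 121.

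**Figure D4:**
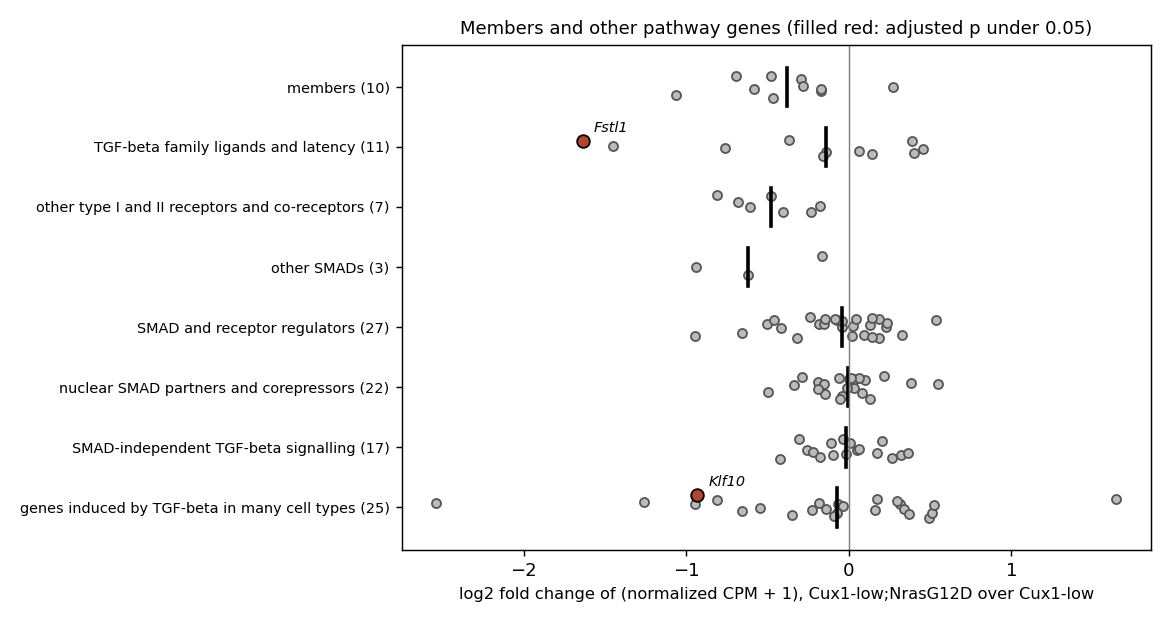
Log2 fold change of (normalized CPM + 1), Cux1-low;NrasG12D over Cux1-low (x axis), for the 10 genes (members) and the measured genes of the 7 pathway lists, with the number measured in brackets. Each point is a gene, black bars are medians, and red points passed an adjusted p of 0.05: Fstl1 and Klf10, both lower. The members' median of -0.38 lies left of that of the regulators (-0.04). Those of the other receptors (-0.48) and other SMADs (-0.62) lie further left.

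Summed markers of some cell types were separate between the groups, and those of others overlapped. In bulk libraries fewer cells of a type and less RNA per cell cannot be told apart. Of 22 haematopoietic stem cell genes, 21 were listed, 2 fell (Gprasp2 and Ndn), and their summed level was 1958 to 3479 normalized CPM in the NrasG12D libraries against 4916 to 5093 in the Cux1-low libraries. NrasG12D library 3 had the highest sum of its group (3479), as it had for Tgfbr2, Tgfbr3, Tgfbr1 and Smad3. The stem cell gene Procr was at 15.6, 8.67 and 34.3 normalized CPM in the NrasG12D libraries against 72.5 and 81.8. Of the stem cell genes 19 had a negative sign and 2, Slamf1 and Cd48, a positive one. Slamf1 was at 11.2, 17.6 and 19.3 normalized CPM against 12.2 and 8.09, and the groups overlapped. Megakaryocyte and platelet genes, of a lineage rich in TGF-beta 1, had 16 of 18 listed, 1 fell (F2rl2), and they summed to 903 to 1709 normalized CPM against 1993 to 2041. Their defining gene Pf4 was level, at 134, 131 and 143 against 134 and 142. B cell genes (8 of 13 listed, 0 passed) summed to 60.5 to 551 normalized CPM in the NrasG12D libraries against 58.1 to 79.4, and erythroid genes (10 of 15 listed, 0 passed) to 5660 to 10977 against 4653 to 5061. The B cell sum of NrasG12D library 3 (60.5) lay inside the Cux1-low range, while libraries 1 and 2 were at 269 and 551. The defining B cell genes Ms4a1 and Pax5 were not listed. Dendritic cell genes (8 of 12 listed, H2-Aa fell) summed to 447 to 630 normalized CPM in the NrasG12D libraries against 1055 to 1326, with library 3 at 517, inside the range of its group. Mast cell, eosinophil and basophil genes (9 of 12 listed, Prg2 and Epx fell) summed to 1027 to 1368 against 1295 to 1544. Without NrasG12D library 3, where 18% of all genes rose and 19.4% fell, 18 of the 21 stem cell genes, 11 of the 16 megakaryocyte genes, 5 of the 8 dendritic cell genes and 4 of the 9 mast cell, eosinophil and basophil genes fell. In that fit 9 of the 10 erythroid genes, 8 of the 8 B cell genes and 1 dendritic cell gene rose. So did 3 of the 5 listed neutrophil genes and 3 of the 8 listed monocyte and macrophage genes. The neutrophil genes summed to 8056 to 19310 normalized CPM in the NrasG12D libraries against 7419 to 10490 in the Cux1-low libraries. Of the 8 listed endothelial and stromal genes 4 fell and 1 rose, and 0 of the 4 listed T and NK cell genes passed. The part of these markers in the levels of the receptor and SMAD genes was not tested.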

How the data were processed

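RNA was isolated with Trizol and made into polyA libraries with an Illumina TruSeq v2 kit, per the labels' protocols. TopHat, HTSeq and edgeR, and the builds hg19 and mm10, appear in the submitters' processing notes without versions or roles. No source used here states whether reads were counted by strand. The deposited signal values, headed CPM per the file headers, sum to 971746 to 1026780 per library, so each library size had been multiplied by a composition factor, and they are called normalized CPM. Each listed gene exceeds 1 in at least 3 of 5 libraries, so genes above 1 only in the 2 Cux1-low libraries are not listed. The authors' deposited table also gives a log2 fold change (positive where NrasG12D is higher), a likelihood ratio score, an average log2 CPM, and p-values with adjusted p-values. All values were whole multiples (tolerance 0.001) of 1 step per library, which gave the reads quoted; too few values were low for these reads to be accepted for a count test.

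Tests used limma 3.58.1 (R 4.3.3) with a trended variance on log2(value + 1), after a filter of at least 1 in 2 libraries that removed 0 genes, with Benjamini-Hochberg adjustment over 11352 genes and a threshold of 0.05; this scale understates changes of low genes. The step was tested on simulated data that held no library set apart like NrasG12D library 3, so that test does not cover its effect. Ratios were compared by exact permutation. Exon lengths and positions came from GENCODE M21 and promoters from RefSeq. Python 3.11.15, numpy 2.4.6, pandas 2.3.3 and matplotlib 3.10.9 were used. Named genes were the 10 members, up to 2 genes per direction and pathway list past the threshold (or the 2 with the smallest p), the 3 genes most like each of the 3 most variable members, and called neighbours among the nearest 3 on each side. The members and lists were chosen with earlier results of these data known. Marker genes given as checks were chosen after their values were seen.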

Additional observations from a re-analysis of the deposited data

How the results depend on the processing

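Over 14 alternatives per gene, the 10 genes kept their direction except Smad7 under quantile normalization (0.026). The count of all genes past the threshold, 128, became 202 with upper-quartile scaling and 228 with quantile normalization, and ranged from 3 to 4243 when single libraries were left out, the highest without NrasG12D library 3. The count among the 10 genes was 0 and ranged from 0 to 5 in the same way. Among the 112 other pathway genes it was 2, against 4 with quantile normalization, 1 without a variance trend, and 0 to 33 with single libraries left out. With the replicate number as a block, 4163 of all genes, 6 of the 10 (Tgfbr1, Tgfbr2, Tgfbr3, Smad3, Smad4 and Skil) and 36 pathway genes passed. NrasG12D library 3 has no partner of its number there, so that fit estimates the difference from the other 4 libraries alone. Only 2 numbers are shared, deviations of same-numbered libraries correlated at -0.12 over genes, and nothing in the labels pairs them. Left-out libraries moved the difference in log2 ratio to between 0.30 and 0.87 for Tgfbr1 over Tgfbr2, -0.53 and -0.25 for Smad3 over Smad2, -0.48 and 0.088 for Skil over Ski (positive only without NrasG12D library 1), and -0.045 and 0.28 for Smad7 over Smad4 (negative only without Cux1-low library 1). Smad4 did not pass with all 5 libraries (SE 0.15) and passed without NrasG12D library 3 (SE 0.10). The lowest value among the 10 genes rested on 151 reads.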

Other observations

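The genomic neighbours of the 10 genes were read as well. Of 56 listed genes among the nearest 3 on each side (Smad2 and Smad7 counted as neighbours of each other), 1 passed with all 5 libraries, where 1.13% of all genes did. This was Gnb1, which encodes a G protein beta subunit and lies on distal chromosome 4 (155491361 to 155559269) beyond Ski. Gnb1 rose, at 573, 558 and 594 normalized CPM in the NrasG12D libraries against 263 and 249 in the Cux1-low libraries (log2 fold change 1.16, SE 0.10, limma adjusted p = 0.0113). Ski, between Morn1 and Faap20 in the order of listed genes, had a log2 fold change of -0.28, and those of Morn1 and Faap20 were -0.08 and -0.46 (limma adjusted p = 0.803 and 0.0903). Gnb1 was thus higher in all 3 NrasG12D libraries alike, library 3 included, whereas Ski overlapped between the groups. Without NrasG12D library 3, 21 of the 56 neighbours passed, a share close to the 37.4% of all genes that passed in that fit.

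Smad3 and the inhibitory SMAD gene Smad6 are listed neighbours on chromosome 9, and both had lower means in the NrasG12D libraries, with log2 fold changes of -0.58 and -0.94. Zwilch, the next listed gene on that side, had a log2 fold change of 0.29, and Rpl4 one of 0.47. None of these 4 genes passed with all 5 libraries.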
